A study of Sus scrofa with 6 samples.

Results

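The antioxidant enzymes described here are the products of 7 genes that a cell uses to hold down superoxide, hydrogen peroxide and oxidised thiols: GCLM and GSR of the glutathione system, the superoxide dismutases SOD1 and SOD2, catalase (CAT), thioredoxin (TXN) and haem oxygenase 1 (HMOX1). All probe sets that the platform annotation assigns to exactly 1 of these symbols were taken, which gave 11 probe sets for 7 of 7 genes, out of 10069 probe sets with 1 symbol. Expression was measured on 6 Affymetrix porcine arrays of aortic valve leaflets from adult female pigs. Endothelium had been removed from every leaflet with collagenase, and all leaflets were kept overnight in serum-containing medium with an antibiotic before pressure was applied. In a bioreactor, 3 samples received cyclic pressure of 0 to 80 mmHg (normotensive) and 3 samples received 0 to 120 mmHg (hypertensive), each at 1 Hz for 24 h in the same medium. The normotensive leaflets are the only controls; leaflets without pressure were not analysed here. The labels speak of biological replicates and do not say which leaflets share an animal, so the p-values reflect the spread over these leaflet samples alone.

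Superoxide dismutases turn superoxide into hydrogen peroxide, SOD1 with copper and zinc in the cytosol and SOD2 with manganese in mitochondria. Peroxide is then removed by catalase in peroxisomes, or by peroxidases and peroxiredoxins that draw on reduced glutathione and thioredoxin. Glutathione is made in a pathway whose first and limiting step is glutamate-cysteine ligase, of which GCLM is the modifier subunit, and GSR uses NADPH to return oxidised glutathione to its reduced form. HMOX1 opens the haem ring to biliverdin. GCLM, GSR, TXN and HMOX1 are known targets of the transcription factor NRF2, and SOD2 is a known target of NF-kB.

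Values are MAS5 signals, which the array software reports on a linear scale for each probe set. A difference is the hypertensive minus the normotensive mean of log2 signals, and its standard error (SE) comes from limma's fit to 3 arrays per group. A probe set was kept for testing when its mean log2 signal reached the 40th percentile, a signal of 48.5. The 2 groups are said not to overlap when all 3 arrays of one lie above all 3 of the other. Arrays have no read depth, and precision is limited by their number. Every array had been scaled to the same trimmed mean signal, close to 500.1, so a change shared by most transcripts would not be seen. Among the hypertensive arrays, replicate 2 correlated with the normotensive arrays at a mean of 0.950 over kept probe sets, against 0.895 for replicate 3 and 0.817 for replicate 1. The 3' to 5' signal ratio of control genes can reflect RNA integrity and also the amplification that every sample had, which cannot be told apart here. For GAPDH it was 2.11 to 7.52 on normotensive and 2.91 to 6.04 on hypertensive arrays. For actin it was 41.1 to 109 and 52.5 to 81.7, and for EF1A 1.3 to 1.65 and 1.35 to 1.55. The groups overlapped in each control, and 3' signal exceeded 5' signal on every array, by far the most for actin. The part of this 3' bias in the differences below was not tested.

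The tissue label was set against markers. All 10 interstitial or fibroblast markers on the array were kept, and their summed signal was 115853 to 117701 on normotensive and 88173 to 111473 on hypertensive arrays, lower on every hypertensive array. Of 10 endothelial markers, 5 were kept, and CDH5, VWF, KDR, SELE and TIE1 were not. The endothelial sum was 2493 to 3054 under normotensive and 2070 to 4327 under hypertensive pressure. Of the 5 kept, 1 had a higher and 4 a lower hypertensive mean, with a median log2 difference of -0.37. Single endothelial markers were higher on all 3 hypertensive arrays: the selectin SELP, kept, at 90.6 to 245 and 368 to 2296, SELE at 1.11 to 4.50 and 29.3 to 443, and CDH5 at 12.3 to 40.5 and 68.4 to 115. ERG was lower on all 3, at 1142 to 1780 and 899 to 1019. The part of these markers in the differences below was not tested. Of 10 macrophage and leukocyte markers 7 were kept, CD3E, CD74 and ITGAM were not, and the sum was 2022 to 3468 and 1366 to 2919. Of the 7, 4 had a higher and 3 a lower hypertensive mean, with a median of 0.06. PTPRC, near the filter level, lay lower without overlap, at -1.33. CORO1A lay higher without overlap, at 0.79, and a further kept CORO1A probe set had the opposite sign. Of the red blood cell markers, HBB, a haemoglobin chain, was at 1323 to 1524 and 1041 to 2438, and ALAS2 was not kept. None of the 5 muscle or 3 adipocyte markers on the array was kept. Leaflets are a mixture of cells, and fewer cells of a type cannot be told apart from less RNA per cell.

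Across the 7 genes, the glutathione genes GCLM and GSR had the largest positive differences and CAT the only negative one. SOD1 and TXN had smaller positive differences, and in SOD2 and HMOX1 the groups overlapped. By limma, 0 of 9 kept probe sets passed an adjusted p of 0.05, as did 0.0% of all 14399 kept probe sets. At an unadjusted p under 0.05 there were 6 of 9, where the share over all kept probe sets was 16.9%. In the same 6 the groups did not overlap, with 5 higher where 10.4% of all kept probe sets were, and 1 lower where 12.0% were. Among the 5 higher, a further GSR probe set reached the filter only through its hypertensive arrays and so had to differ; with the filter at the 60th percentile it was left out and 5 probe sets did not overlap. The counts by probe set are therefore given as a description only. Counted by gene, each represented by its brightest kept probe set, the groups were apart in 5 of 7 genes, against 21.9% of 5271 genes. The median log2 difference was 0.44 over the 7 genes and -0.068 over all kept genes. These genes were chosen with earlier results of the same arrays known, so the counts describe them and are not independent support for a change.

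**Figure D1:**
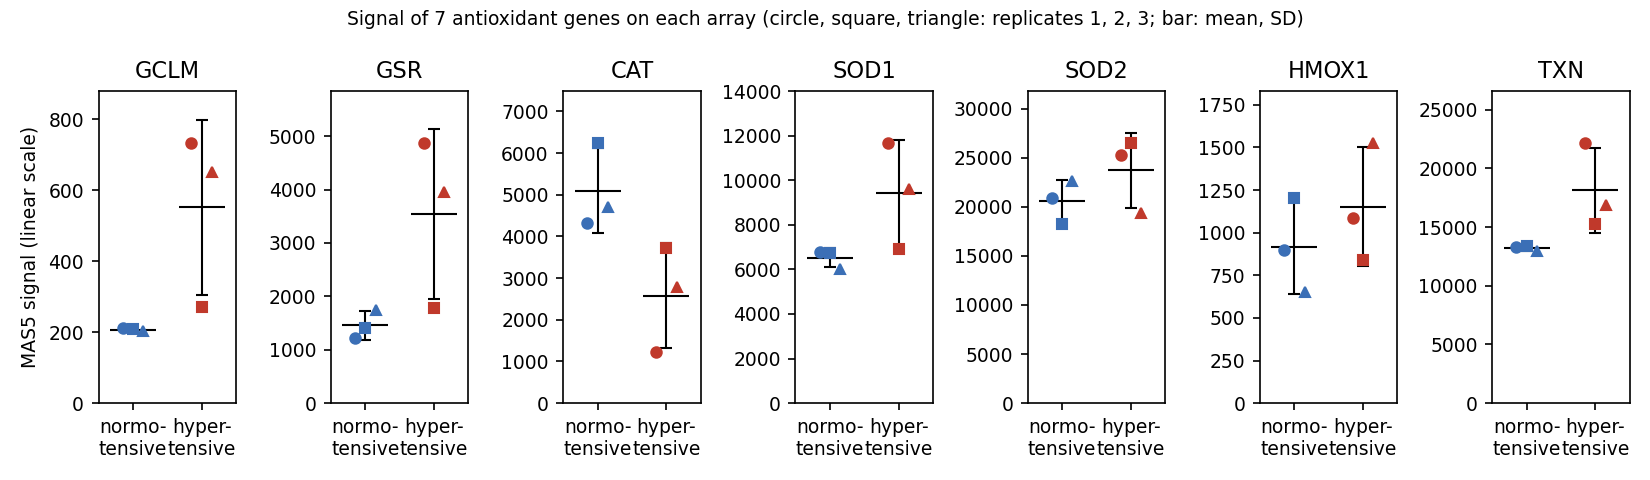
MAS5 signal (linear scale, from 0) of the brightest probe set of each gene on each array; circles, squares and triangles are replicates 1, 2 and 3, blue for normotensive and red for hypertensive pressure, and bars give the mean and SD of 3 arrays. GCLM, GSR, SOD1 and TXN lie higher on all 3 hypertensive arrays, CAT lies lower on all 3, and the groups overlap for SOD2 and HMOX1.

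In the glutathione system, GCLM had signals of 210.5, 208 and 204 on normotensive replicates 1, 2 and 3 and of 734, 270.1 and 650.2 on the hypertensive ones. The normotensive arrays thus lay within a narrow range, all 3 hypertensive arrays lay above it, and hypertensive replicate 2 was the nearest to it. The mean signal was 207 ± 3.47 (SD, n = 3) under normotensive and 551 ± 247 (SD, n = 3) under hypertensive pressure. The hypertensive signal was 2.44 times the normotensive one, a log2 difference of 1.29 (SE 0.40, 95% interval 0.36 to 2.21), which did not pass by limma (adjusted p = 0.257). A further GCLM probe set fell below the filter, with signals between 3.95 and 39.1, and was not tested.

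GSR had signals of 1217, 1399 and 1752 on the normotensive arrays and of 4878, 1781 and 3952 at hypertensive pressure. Hypertensive replicate 2 exceeded normotensive replicate 3 by a small margin, while the other two hypertensive arrays stood well clear. The log2 difference was 1.18 (SE 0.39, 95% interval 0.29 to 2.06), or 2.26 times, and did not pass (limma, adjusted p = 0.264). The groups overlapped once arrays were shifted to a common median. A further kept GSR probe set, at 24.7 to 36.1 under normotensive and 54.8 to 154 under hypertensive pressure, had a difference of 1.45 (SE 0.46, adjusted p = 0.257 by limma). Its normotensive signals all lay below the filter level of 48.5 and it was kept only through the hypertensive arrays, so neither its size nor its direction supports that of the brightest GSR probe set. The remaining GSR probe set, at 1.92 to 30.6, was below the filter.

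The 2 glutathione genes were also set against each other on each array. The log2 ratio of GCLM to GSR signal was -2.80 ± 0.29 (SD, n = 3) under normotensive and -2.69 ± 0.07 (SD, n = 3) under hypertensive pressure. The change of 0.11 was within the spread between arrays (exact permutation test, 2-sided, p = 0.7, adjusted p = 0.7 over 3 pairs of genes), which does not show that they changed alike. With 3 arrays a side, 0.1 is the smallest p that this test allows.

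Of the superoxide dismutases, SOD1 had signals of 6784, 6743 and 6026 under normotensive and of 11686, 6922 and 9626 under hypertensive pressure. The groups did not overlap, but hypertensive replicate 2 lay close to the highest normotensive arrays, and the groups overlapped with quantile normalization. The mean signals were 6518 ± 427 and 9411 ± 2389 (SD, n = 3 each). The log2 difference was 0.50 (SE 0.22, 95% interval 0.00 to 1.00), or 1.41 times, and did not pass (limma, adjusted p = 0.295).

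SOD2 had signals of 20866, 18237 and 22570 on the normotensive arrays and of 25261, 26528 and 19349 at hypertensive pressure. Hypertensive replicates 1 and 2 lay above every normotensive array and replicate 3 lay inside the normotensive range. The difference was 0.20 (SE 0.16, 95% interval -0.17 to 0.56; limma, adjusted p = 0.509). The interval excludes a doubling of the SOD2 signal and does not show that it stayed the same. The highest signal of any probe set was between 24516 and 34208 on the 6 arrays, so SOD2 lay near the top of the range, where array signals can be compressed. Unlike in SOD1, replicate 2 was the highest hypertensive array in SOD2. The log2 ratio of SOD2 to SOD1 was 1.65 ± 0.24 and 1.35 ± 0.51 (SD, n = 3 each), a change of -0.30 that did not exceed the spread (exact permutation test, 2-sided, p = 0.4, adjusted p = 0.6).

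**Figure D2:**
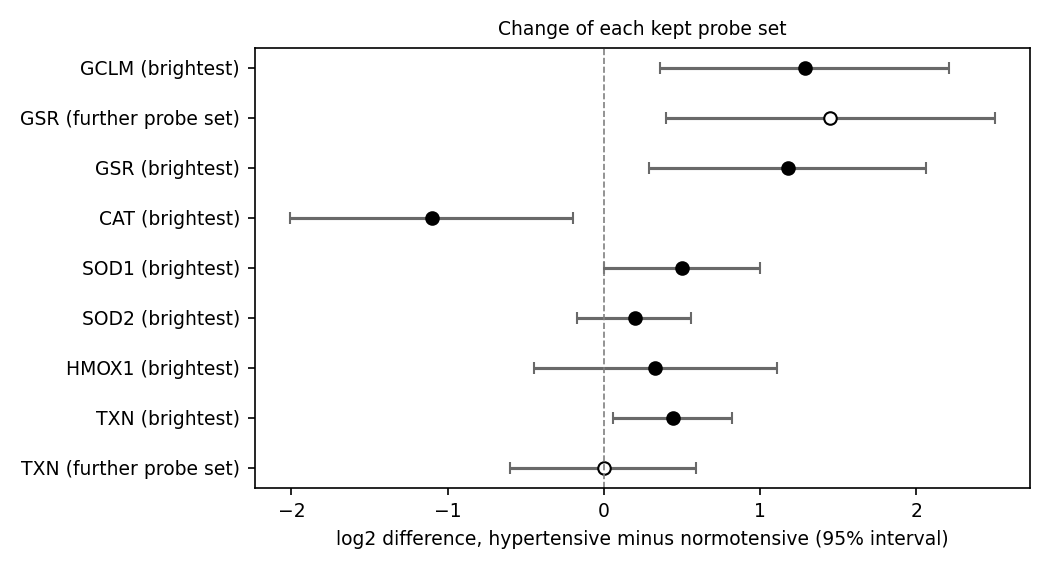
Log2 difference between hypertensive and normotensive pressure for the 9 kept probe sets, with the 95% interval of limma's fit over 3 arrays per group; filled points are the brightest probe set of a gene and open points a further one. The brightest GSR probe set lies at 1.18 and the further one, kept only through its hypertensive arrays, at 1.45, CAT lies below 0 at -1.10, and the 2 TXN probe sets disagree.

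Among the enzymes that remove peroxide or reduce thiols, CAT was the only one of the 7 genes with lower signal. It had signals of 4318, 6251 and 4718 under normotensive and of 1237, 3722 and 2780 under hypertensive pressure. All 3 hypertensive arrays lay below all 3 normotensive arrays, with replicate 1 the lowest and replicate 2 the nearest. The mean was 5096 ± 1020 and 2580 ± 1255 (SD, n = 3 each). The normotensive signal was 2.15 times the hypertensive one, a log2 difference of -1.10 (SE 0.40, 95% interval -2.01 to -0.20), and it did not pass (limma, adjusted p = 0.269). Of 10 interstitial cell markers, 9 had lower means, with a median of -0.30, and 0 passed by limma. LUM and POSTN lay lower without overlap, at -0.86 and -0.53, and SPARC higher without overlap, at 0.12. The largest drops were in COL3A1, at -1.02, and THY1, at -1.01, both with overlapping groups. The median of the 10 markers was -0.37, 0.03 and -0.33 on hypertensive replicates 1, 2 and 3. On these arrays CAT was at -2.02, -0.43 and -0.86 against its normotensive mean. COL3A1 was at -2.62, 0.41 and -0.86, and THY1 at -1.77, -0.1 and -1.17. The part of these markers in the CAT difference was not tested.

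The log2 ratio of SOD2 to CAT compares an enzyme that makes peroxide in mitochondria with one that removes peroxide in peroxisomes. It was 2.27, 1.54 and 2.26 under normotensive and 4.35, 2.83 and 2.80 under hypertensive pressure, without overlap. The change was 1.30 (exact permutation test, 2-sided, p = 0.1, the smallest that this design allows, and adjusted p = 0.3 over 3 pairs). The change did not pass. It equals the SOD2 difference of 0.20 minus the CAT difference of -1.10, so most of it repeats the CAT difference given above. The SOD2 signal lay near the top of the array range, and the part of compression there in this ratio was not tested.

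TXN, the small protein that reduces disulphides in peroxiredoxins and other targets, had signals of 13264, 13381 and 12956 under normotensive pressure. The hypertensive signals were 22186, 15296 and 16901, above the normotensive range on all 3 arrays. The difference was 0.44 (SE 0.16, 95% interval 0.06 to 0.82), or 1.36 times, and did not pass (limma, adjusted p = 0.273). The groups overlapped with quantile normalization. A further TXN probe set, annotated to the same transcript, was at 747, 634 and 828 and at 717, 668 and 816, with overlapping groups. It stood at 0.999 times the normotensive signal (95% interval -0.60 to 0.59 on the log2 scale), so the 2 TXN probe sets did not give the same picture. With the mean of both, the TXN difference was 0.22.

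HMOX1, the inducible haem oxygenase, had signals of 897, 1206 and 649 on the normotensive arrays and of 1085, 842 and 1528 at hypertensive pressure. Of the hypertensive arrays, only replicate 3 lay outside the normotensive range. The suffix _s_at of its probe set marks probes that can match more than 1 transcript. The difference was 0.33 (SE 0.34, 95% interval -0.45 to 1.11; limma, adjusted p = 0.608), an interval that holds both no change and a doubling. Macrophages that clear haemoglobin express HMOX1 together with the scavenger receptor CD163. CD163 was at 1497, 2261 and 1294 and at 270.2, 1794 and 875, again with overlapping groups, and a further CD163 probe set differed in sign. The part of such cells in the HMOX1 signal was not tested.

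The hypertensive arrays did not contribute equally. Replicate 2 was nearest to the normotensive mean of the 3 hypertensive arrays in GCLM, GSR, CAT, SOD1, TXN and HMOX1. Its log2 distance was 0.38 for GCLM and 0.31 for GSR, where replicate 1 stood at 1.82 and 1.76 and replicate 3 at 1.65 and 1.46. Without hypertensive replicate 2, limma passed 6 of 9 member probe sets, those of GCLM, CAT, SOD1, TXN and both of GSR, where it passed 24.4% of all kept probe sets. One of the GSR probe sets is that kept only through its hypertensive arrays. With array weights, limma gave hypertensive replicates 1, 2 and 3 weights of 0.289, 0.195 and 2.38 and the normotensive ones 6.96, 0.931 and 1.15, so that 1 array in each group carried most of the weight. It then passed 7 of 9 where 39.2% of all kept probe sets passed, and HMOX1 was the addition. No other omission of a single array gave a member past the threshold. When any 1 array was left out, no member's fold moved by more than 1.37 times, the value of CAT without hypertensive replicate 1.

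**Figure D3:**
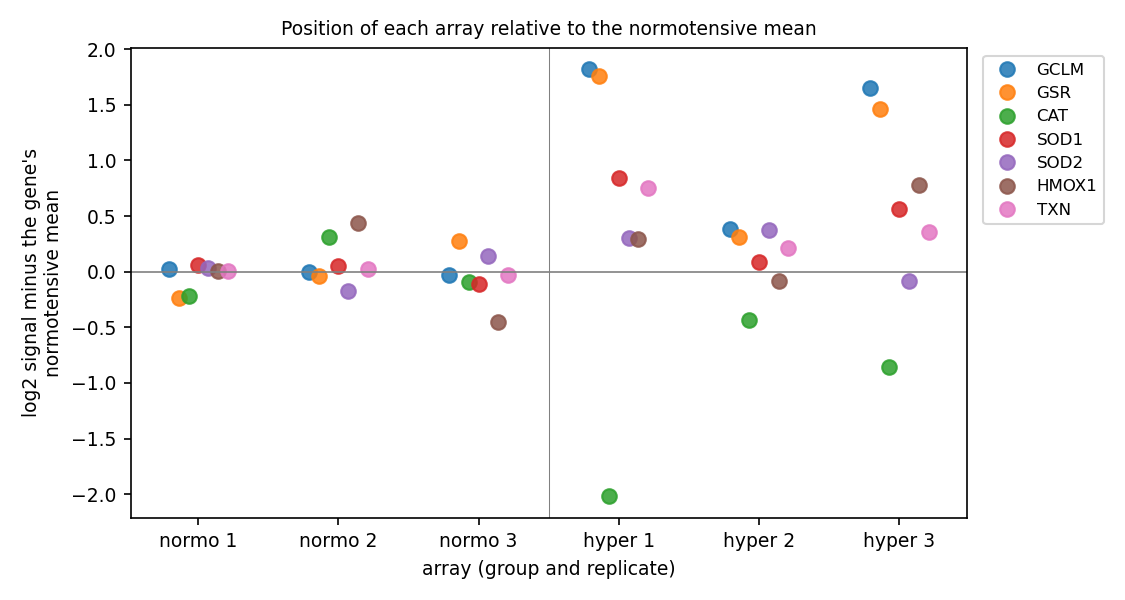
Log2 signal of each gene's brightest probe set on each array, minus that gene's normotensive mean; the 3 normotensive arrays stand left of the line and the 3 hypertensive arrays right of it. GCLM and GSR lie together at 1.46 to 1.82 on hypertensive replicates 1 and 3 and at 0.31 to 0.38 on replicate 2, while CAT lies at -2.02, -0.43 and -0.86.

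Profiles like those of the 2 extreme genes were looked for among 5270 other genes, by the root mean square distance over the 6 arrays of log2 signals centred on the normotensive mean. Nearest to GCLM were ARIH2 and RIOK1, at distances of 0.09 and 0.11, followed by RNF149 and WDR37 at 0.12 and 0.13. ARIH2 was at 219.9, 234 and 239.6 under normotensive and at 856, 294 and 653 under hypertensive pressure. Nearest to CAT were MAN1C1 and WDYHV1, both at 0.08, then HIBCH at 0.10 and ALDH18A1 at 0.12. WDYHV1 was at 1823, 2535 and 2158 and at 563, 1523 and 1284. By limma the adjusted p of these 8 genes ran from 0.262 to 0.298, so none passed.

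The wider redox network was described with 9 lists, of which 67 genes were kept, 60 of them beside the 7 above. Of the 60, limma passed 0, and 10 had an unadjusted p under 0.05, where 17.0% of all kept genes did. The groups did not overlap in 5 higher and 6 lower genes, together 18.3%; over all kept genes 9.28% were higher without overlap and 12.6% lower. The median difference of the 60 was -0.04. The network beyond the 7 genes thus had shares close to those of all genes. Leaving out hypertensive replicate 2 took the number without overlap from 11 to 33, where 56.5% of all kept genes had none, and leaving out hypertensive replicate 3 took it to 19, where 32.4% had none.

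Synthesis of glutathione was represented by 6 kept genes of 7 on the array, with 4 higher, 2 lower and 0 past the threshold, and a median of 0.15. CTH, which makes cysteine from cystathionine, had the largest positive difference of all 67 genes. It was at 119, 94.3 and 86.5 under normotensive and at 776, 181 and 514 under hypertensive pressure, a difference of 2.07 (SE 0.51; limma, adjusted p = 0.235). As in GCLM, the groups did not overlap and replicate 2 was the nearest hypertensive array. GCLC, the catalytic partner of GCLM, was named after its values were seen. It was at 569, 451 and 851 and at 456, 497 and 1154, with overlapping groups and a difference of 0.09, and 2 of its 3 kept probe sets shared this sign. GSS, which joins the last amino acid to glutathione, had a difference of -0.72 in 1 of its 2 kept probe sets, the other having the opposite sign. SLC3A2, the heavy chain of the cystine transporter, had one of 0.22, and in both genes the groups overlapped.

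Recycling of glutathione and supply of NADPH had 12 kept genes, 7 higher and 5 lower, with 0 past the threshold and a median of 0.20. PGD, a dehydrogenase of the pentose phosphate pathway that yields NADPH, was at 466, 537 and 335 and at 2639, 586 and 1971, a difference of 1.73 (SE 0.54; limma, adjusted p = 0.257). GLRX, the glutaredoxin that removes glutathione from proteins, was at 360.3, 517 and 506 and at 2728, 949 and 996, a difference of 1.59 (SE 0.44; limma, adjusted p = 0.238). The dehydrogenase IDH1, a further source of cytosolic NADPH, was at 1041, 1442 and 1055 and at 476, 762 and 706, a difference of -0.88 (SE 0.30; limma, adjusted p = 0.267). The malic enzyme ME1, named after its values were seen, was at 1196, 1119 and 1190 and at 452, 866 and 673, and its further kept probe set had the opposite sign. In each of PGD, GLRX, IDH1 and ME1 the groups did not overlap. Of the 12 kept genes, GSR among them, 3 lay higher without overlap and 2 lower, where 9.28% and 12.6% of all kept genes did.

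Beside SOD1 and SOD2, the extracellular dismutase SOD3 lay under the filter level on all 6 arrays, at 10.3 to 21.3. CCS, which loads copper into SOD1, was at 555, 600.5 and 372 and at 337, 517 and 284, with overlapping groups and a difference of -0.44.

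Removal of peroxide had 11 kept genes, 4 higher and 7 lower, with 0 past the threshold and a median of -0.05. PRDX1, a cytosolic peroxiredoxin that thioredoxin recharges, was at 8765, 9946 and 7319 and at 14409, 10815 and 10797, without overlap and with a difference of 0.47 (SE 0.19; limma, adjusted p = 0.283). PRDX3, its mitochondrial relative, was named after its values were seen and lay lower without overlap, at -0.31. GPX4, the peroxidase of lipid peroxides, had a difference of -0.85 and PRDX5 one of -1.01, both with overlapping groups, and a further GPX4 probe set had the opposite sign.

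The thioredoxin list had 9 kept genes, 4 higher and 5 lower, with 0 past the threshold and a median of -0.04. TXNRD1, the reductase that recharges TXN, was at 2711, 2037 and 2349 and at 8807, 2475 and 4969. Hypertensive replicate 2 lay inside the normotensive range, the difference was 1.02 (SE 0.42; limma, adjusted p = 0.285), and 2 of 3 kept probe sets shared this sign. TXNL1, a thioredoxin-like protein bound to the proteasome, lay higher without overlap, at 0.88 (SE 0.24; limma, adjusted p = 0.238), and 3 of 3 kept probe sets shared this sign. MSRB3, which repairs oxidised methionine, lay lower without overlap, at -0.54 (SE 0.21; limma, adjusted p = 0.280).

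**Figure D4:**
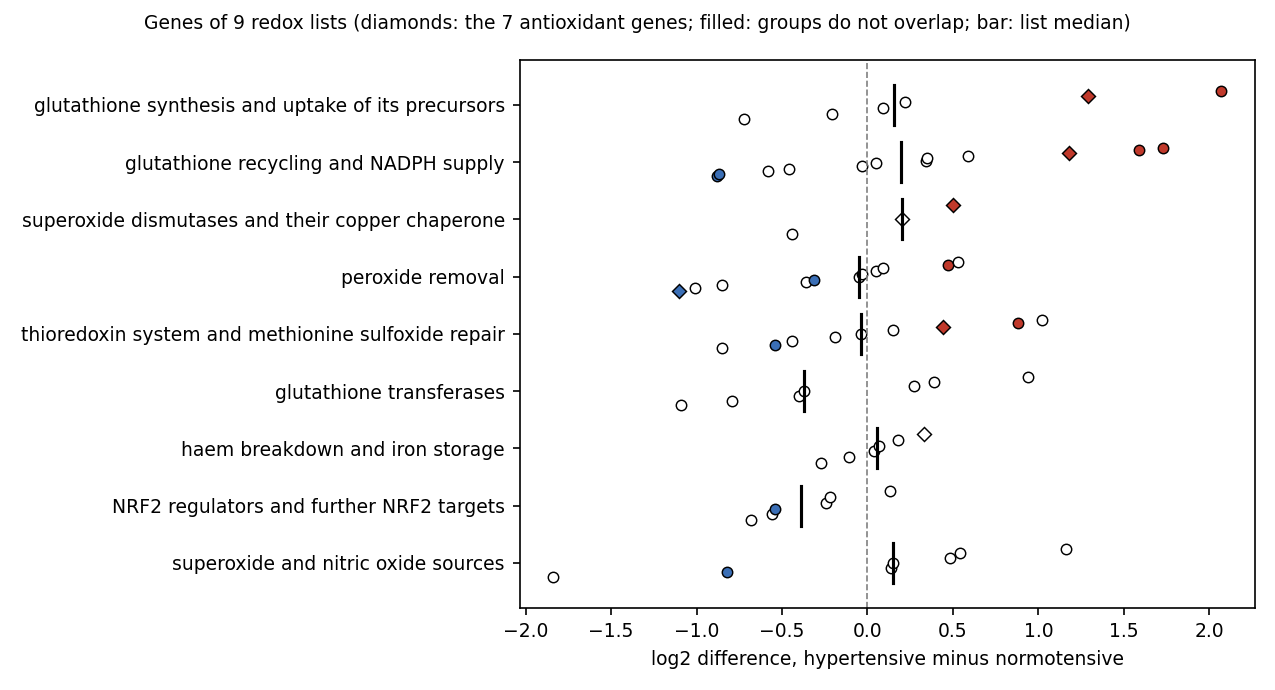
Log2 difference between hypertensive and normotensive pressure for the kept genes of 9 redox lists, 1 point per gene and 3 arrays per group; diamonds are the 7 antioxidant genes, red and blue fill mark groups that do not overlap, higher and lower, and vertical bars are list medians. The medians lie between -0.39 and 0.20, and each of the first 5 lists except the dismutases holds genes on both sides of 0 beyond 0.5.

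In the glutathione transferases, which attach glutathione to foreign and oxidised molecules, the groups overlapped in 7 of 7 kept genes. Over all kept genes 21.9% were without overlap. The median of the transferases was -0.37. With the filter at the 60th percentile this median was 0.27, so its sign depended on the filter. GSTA4 and GSTK1 had differences of -1.09 and -0.79, and GSTM3 and MGST1 of 0.94 and 0.39. The haem and iron list had 6 kept genes and a median of 0.06. All had overlapping groups, to be read against the same 21.9%. The ferritin chains FTH1 and FTL, which store the iron that haem breakdown frees, had differences of 0.18 and -0.11, and the biliverdin reductase BLVRA one of -0.27. A further kept FTL probe set had the opposite sign.

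Of 17 further NRF2 targets and regulators listed, only 6 had a probe set annotated to their symbol alone, and these 6 were kept. The listed regulators NFE2L2, KEAP1 and BACH1 were not among them. Of the 6 kept, 1 was higher and 5 lower, with a median of -0.39 and 0 past the threshold. The 1 higher was SQSTM1, named after its values were seen, at 0.13 with overlapping groups. This list holds none of the genes placed in the other lists, such as GCLM and GSR, so it does not describe NRF2 targets as a whole. NQO1, a quinone reductase much used as a readout of NRF2, was at 6298, 6537 and 6733 and at 4218, 6755 and 6200, a difference of -0.22 with overlapping groups. AKR1A1, an aldehyde reductase, lay lower without overlap, at -0.54. The quinone reductase NQO2 and the metallothionein MT1A had differences of -0.68 and -0.56 with overlapping groups. Among sources of superoxide, nitric oxide or peroxide, 7 genes were kept, 5 higher and 2 lower, with a median of 0.15. The 2 lower were the monoamine oxidases MAOA and MAOB, which release peroxide. MAOA, a mitochondrial oxidase that releases peroxide from monoamines, was at 6472, 7874 and 6005 and at 1992, 5736 and 4904, without overlap and with a difference of -0.82 (SE 0.38; limma, adjusted p = 0.312). NCF1, a cytosolic subunit of the phagocyte NADPH oxidase, had a difference of 1.16 with overlapping groups and signals near the filter level. MAOB, the second monoamine oxidase, was at 123, 335 and 224 and at 17.1, 305 and 38.8, a difference of -1.84 with overlapping groups, and the small GTPase RAC2 had one of 0.54, also with overlap.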

How the data were processed

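The deposited values are intensities that the authors made with GCOS and MAS5, per the submitters' processing notes, without a version; they are linear, with 1 value for each probe set of each array. Each sample had 70 ng of total RNA amplified and 10 µg of cRNA hybridised, per the labels' protocols. Of 24123 probe sets, 124 controls were left out, and 10069 of the rest had 1 gene symbol, 198 several and 13732 none. A gene is said to be on the array when a probe set carries its symbol alone. All 11 member probe sets carried an Entrez identifier with the same symbol in the RefSeq table. Log2 intensities, without a pseudocount, were filtered at the 40th percentile of the mean, which left 14399 probe sets. The test was limma 3.58.1 under R 4.3.3 (lmFit and trended eBayes, 2-sided), adjusted by Benjamini-Hochberg over all kept probe sets at 0.05; ratios within arrays were tested by exact permutation (scipy 1.17.1). The fit was tested on simulated data with shifts larger than any member difference, so that test does not show its power at the sizes seen here. Members and lists were chosen with earlier results of these data known. Named genes are all members, up to 4 genes of smallest p per redox list, and the 4 nearest profiles to the highest and lowest member. Genes named from the cell marker lists, and SOD3, follow no such rule and were named with their values known. Other exceptions are said where they occur. The alternatives tried were quantile normalization, a common median, a replicate block, pseudocounts of 16 and 64, no filter or the 60th percentile, eBayes untrended or robust, array weights, the mean of a gene's probe sets and each array left out.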

Additional observations from a re-analysis of the deposited data

How the results depend on the processing

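Of 119 recomputed member differences, 107 kept their direction and stayed short of the threshold, 11 passed it and 1 changed sign. Those past it came from 2 settings. With array weights the log2 differences were 1.57 for GCLM, 1.56 for GSR, -0.80 for CAT, 0.52 for SOD1, 0.38 for TXN and 0.68 for HMOX1, with adjusted p from 0.000918 to 0.0391, while SOD2 turned to -0.03 (adjusted p = 0.828). Then 7 member probe sets, 25 other redox genes and 5639 of all kept probe sets passed. With 1 array left out, the ranges were 1.02 to 1.74 for GCLM, 0.88 to 1.61 for GSR, -1.44 to -0.65 for CAT, 0.33 to 0.70 for SOD1, 0.28 to 0.55 for TXN, 0.11 to 0.34 for SOD2 and 0.10 to 0.55 for HMOX1; the number passing was 0 to 6 for member probe sets, 0 to 14 for other redox genes and 0 to 3513 for all probe sets, each highest without hypertensive replicate 2. Without normotensive replicate 2, 1 probe set passed and it was no member. Other redox genes without overlap numbered 11 to 33; fewer arrays overlap less often by construction. The change of the GCLM to GSR ratio was -0.06 with a pseudocount of 64, -0.03 with the mean of all probe sets and -0.04 to 0.24 with 1 array left out; the cause was not tested. The replicate numbers are not said to pair samples, and same-numbered arrays deviated together at correlations of 0.059, 0.072 and 0.226, each hypertensive array matching its own number best. With the replicate block 0 member probe sets passed, as without it, with GCLM at 1.29 (adjusted p = 0.175) and CAT at -1.10 (adjusted p = 0.166). Of 153 recomputed list medians, 36 moved by more than the spread between normotensive arrays. Detection calls were not used here, so signals near the filter level have no measured background.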
